A study of Mus musculus with 6 samples.

Results

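The DnaJ genes encode co-chaperones, also called HSP40 proteins, and the members described here are the genes of the deposited mouse testis table whose symbol is Dnaja, Dnajb or Dnajc followed by a number and at most 1 letter. This rule found 45 of 38715 genes. Of these, 6 were placed in a list of spermatid members (Dnajb3, Dnajb7, Dnajb8, Dnajb13, Dnajc5b and Dnajc5g), 30 in a list of housekeeping members known from most tissues, and 9 in neither list. The study sequenced messenger RNA of whole testis in 6 libraries, 3 titled Control and 3 titled Middle. The series text speaks of controls and of mice exposed to MES in early life. Since only Control and Middle occur as titles, Middle is taken here to be the exposed group. The sources used here do not give strain, genotype, age, dose or route of exposure. They also do not say whether each library is a separate animal, and a p-value here measures no more than the spread between libraries.

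DnaJ proteins carry a J domain, which stimulates the ATPase of an HSP70 chaperone and so locks a client protein onto it. The rest of each protein sets where this happens: class A and B members mostly handle unfolded proteins in the cytosol, and class C members place HSP70 at the endoplasmic reticulum, mitochondria, ribosomes, vesicles or the nucleus. Testis has its own members, which appear in haploid germ cells as these build the acrosome and the tail and condense the nucleus.

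Levels are given in RPKM, reads scaled to gene length and library size, which lets genes of different length be compared roughly. The deposited length spans all listed exons of a gene, and which transcripts the testis uses was not determined. Summed over genes, each library had between 38820385 and 58389391 reads. Germ cell markers were present in every library, with the 12 spermatid markers summing to 29120 to 32146 RPKM in Control and 27335 to 29806 in Middle. Of the libraries, Middle replicate 1 stood apart in the relation of level to GC content: the rank correlation of a gene's deviation with its GC content was 0.446 there, 0.028 and -0.071 in Middle replicates 2 and 3, and -0.294 to -0.216 in Control. It also held the most RNA of ribosomal protein genes (10154 RPKM summed, against 7998 and 8614 in the other Middle libraries and 7252 to 7732 in Control). Since the Middle libraries all lay above Control in this GC relation, it cannot be told apart from the group. Mitochondrially encoded RNA summed to 9360 to 11809 RPKM in Control and 13154 to 17853 in Middle. Of the markers of other cells, all 6 tested Sertoli, 3 tested spermatogonium and 3 peritubular genes lay above 0. Their median log2 fold changes were 0.16, 0.31 and 0.24, in that order. So did 3 of 6 Leydig, 2 of 3 macrophage and 2 of 2 blood genes, where 55.9% of all genes tested did. Only 3 of the 6 listed spermatogonium markers were tested, as Gfra1, Kit and Zbtb16 had means under 1 RPKM. Of these, Gfra1 was wholly lower in Middle (mean RPKM 0.479 for Control, 0.397 for Middle). Kit and Zbtb16 had higher means in Middle, with overlapping groups. Spermatocyte markers lay on the side of the spermatid markers, with 6 of 8 below 0 and a median of -0.07. Of them 3 were wholly lower in Middle and 1 wholly higher, where 11.4% and 17.9% of all genes tested were. Sycp1 and Hormad1, among the wholly lower ones, were lowest in Middle replicate 1. Sycp1 was at 7.13 RPKM there against 20.4 and 16.3 in the other Middle libraries, and Hormad1 at 21.1 against 31.1 and 32.6. Middle replicate 1 had the lowest value of all 6 libraries for 19 of the 42 tested members, and Control replicate 1 the highest for 15.

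Dnajb3, the spermatid J protein also known as MSJ-1, was the most abundant of the 45 and made up 17.8% to 19.7% of the summed DnaJ RPKM of a library. Dnaja4, a cytosolic class A member, came second, and its highest library (239.9 RPKM) lay below the lowest of Dnajb3 (339 RPKM). Next came Dnajb8 and Dnajc5b, whose libraries overlapped with those of the most abundant housekeeping members, Dnajb1 and Dnajb6. The 6 spermatid members had mean levels of 51.01 to 387 RPKM with a median of 83.9, while the median of the 30 housekeeping members was 21.2. Summed over its members, the housekeeping list was the larger in every library, at 998 to 1019 RPKM in Control and 942 to 994 in Middle, while the spermatid list summed to 805 to 889 and 685 to 747. The 9 members in neither list, Dnaja4 among them, summed to 284 to 312 and 268 to 281. Mean levels under 1 RPKM in both groups were seen for Dnajc12, Dnajc22 and Dnajc6, the last encoding the neuronal clathrin-uncoating protein auxilin. These 3 genes, with 18 to 165 reads per library, were left out of the test, and the other 42 were tested.

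**Figure D1:**
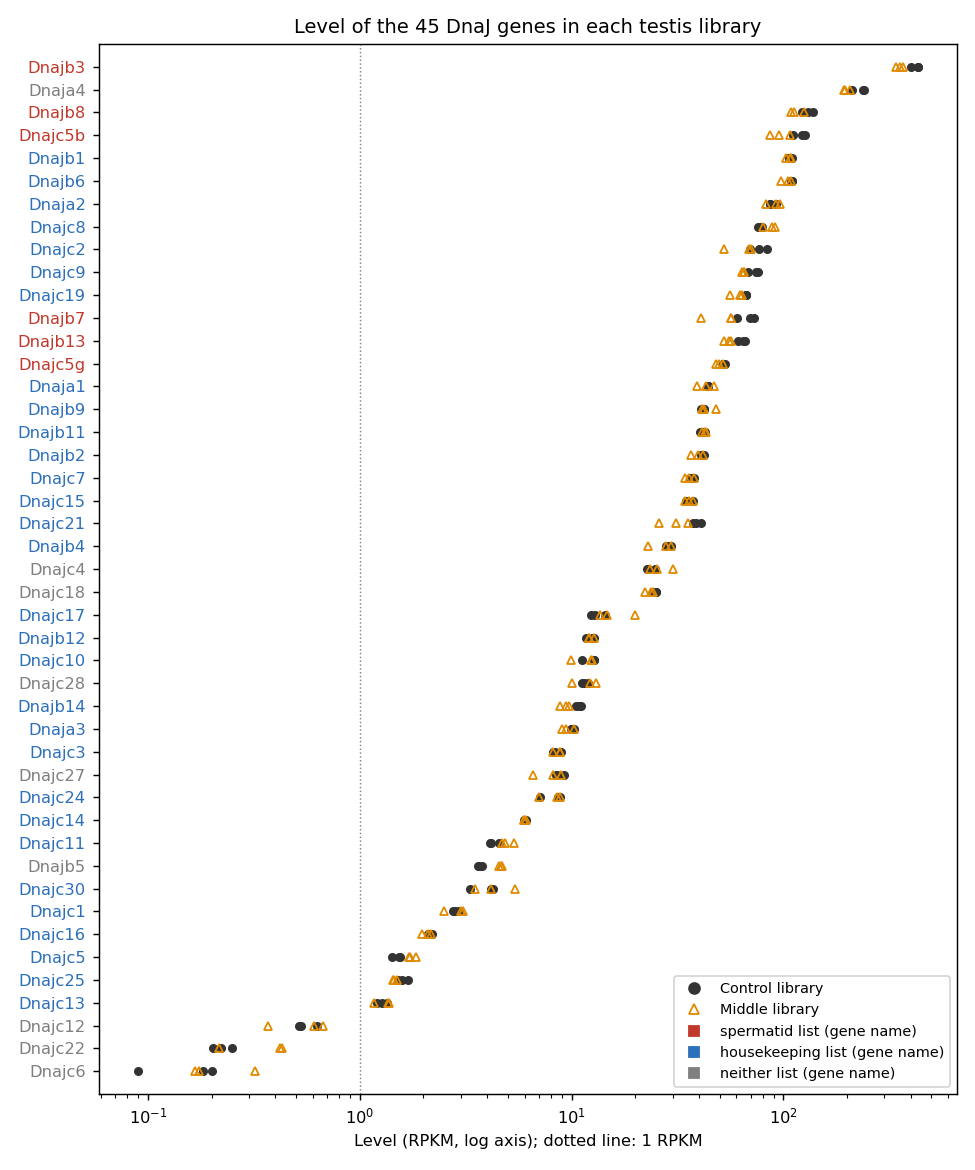
Level of each of the 45 DnaJ genes in RPKM on a log axis, 1 point per library (filled circles Control, open triangles Middle), with gene names coloured by list. Dnajb3 stands highest at 339 to 434 RPKM, and the spermatid genes (red names) all lie among the 14 most abundant.

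No DnaJ gene passed the test between Middle and Control. Of 42 tested members 0 had an adjusted p under 0.05 (limma), where 0.0532% of all 15040 genes tested did, and the smallest adjusted p of a member was 0.178. An unadjusted p under 0.05 was reached by 11 members (26.2%), where 20.7% of all genes reached it. On recovered reads the voom variant of limma also called 0. The median log2 fold change of the 42 was -0.04, with 27 below 0 and 15 above, while 44.1% of all genes lay below 0 and the median of all genes was 0.03. Middle lay wholly below Control for 12 members and wholly above for 4, together 16 of 42, where 29.3% of all genes had groups without overlap. All log2 fold changes were computed from log2(RPKM + 1), which makes the differences of low genes look smaller.

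The spermatid and housekeeping lists lay differently in this comparison. All 6 spermatid members had lower means in Middle, with a median log2 fold change of -0.23 and a median ratio of 0.851. Of the 30 housekeeping members 18 lay below 0 and 12 above, with a median of -0.01, or -0.03 with median-of-ratios scaling. In 5 of the 6 spermatid members every Middle library lay below every Control library, which held for 11.4% of all genes tested. The same was seen in 5 of the 30 housekeeping members, and 3 others had every Middle library above every Control library, where 17.9% of all genes did. Without Middle replicate 1 all 6 spermatid members still lay below 0, with a median of -0.23. Control replicate 1 was the highest of the 6 libraries for 5 of the 6 spermatid members. Without it all 6 also lay below 0, with a median of -0.21. The smallest adjusted p of a spermatid member was then 0.511 (limma), against 0.178 with all libraries and 0.218 without Middle replicate 1. The lists are described and not tested, since members and lists were chosen with earlier results of these data known. The shares of all genes beside them are thus no test of the lists, and no single member passed.

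Counted over exons, the spermatid members were mostly short. Their deposited lengths, which leave out introns, ran from 1051 to 2732 bases with a median of 1393, against a median of 4891 for housekeeping members (1308 to 15741). The spans given below include introns, and some are far longer. Dnajb3 (chromosome 1, 88132454 to 88133504, GRCm39) and Dnajb7 (chromosome 15, 81291127 to 81292500) each consist of 1 exon. Dnajb3 lies in introns of the Ugt1a genes on the opposite strand and of Gm20528 on its own, and Dnajb7 in an intron of Xpnpep3, with no shared exon bases. Dnajb8 (chromosome 6, 88199250 to 88231397) shares 525 exon bases with 1700031F10Rik on the other strand. Dnajb13 (chromosome 7, 100150923 to 100164167) shares 305 bases with Ucp2. Dnajc5b (chromosome 3, 19562759 to 19665026) shares 27 bases with 1700064H15Rik, and Dnajc5g (chromosome 5, 31263629 to 31269870) shares none. The sources used here do not say how reads in shared bases were assigned, and the levels of Dnajb8 and 1700031F10Rik may not be separate measurements. Median GC content was 48.6% for spermatid and 47.0% for housekeeping members.

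The bases before the start sites are shown for the spermatid members because these genes lay on the same side in the comparison, with Dnajb1 as an abundant housekeeping member for contrast. RefSeq promoter windows on GRCm38.p6 matched 37 of the 45 members, among them 5 spermatid members. Printed are the 250 bases before a start of each gene, 5′ to 3′ on the strand of the gene. Dnajb1 has a second window, chr8:83608298-83608547, which lies past its first start, holds neither TGACG nor CCAAT and is not printed. Capitals mark the letters TGACG, the first part of the cAMP response element bound by CREB and CREM proteins, and CCAAT, a common promoter element, each on either strand.
Dnajb3, chr1:88205749-88205998, minus strand: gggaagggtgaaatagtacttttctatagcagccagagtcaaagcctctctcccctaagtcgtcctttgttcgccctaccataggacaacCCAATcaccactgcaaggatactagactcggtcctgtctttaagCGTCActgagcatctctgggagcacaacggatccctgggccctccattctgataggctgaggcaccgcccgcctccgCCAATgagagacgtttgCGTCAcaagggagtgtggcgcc
Dnajb7, chr15:81408274-81408523, minus strand: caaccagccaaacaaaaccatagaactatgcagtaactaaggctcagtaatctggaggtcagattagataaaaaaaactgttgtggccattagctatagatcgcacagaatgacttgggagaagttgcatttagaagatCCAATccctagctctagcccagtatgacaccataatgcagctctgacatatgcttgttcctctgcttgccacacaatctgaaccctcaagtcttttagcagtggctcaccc
Dnajb8, chr6:88222018-88222267, plus strand: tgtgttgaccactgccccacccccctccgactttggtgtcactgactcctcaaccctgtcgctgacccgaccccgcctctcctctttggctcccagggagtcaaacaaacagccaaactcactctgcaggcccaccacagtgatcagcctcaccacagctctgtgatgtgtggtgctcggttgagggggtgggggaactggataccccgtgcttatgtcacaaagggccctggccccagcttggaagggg
Dnajb13, chr7:100514816-100515065, minus strand: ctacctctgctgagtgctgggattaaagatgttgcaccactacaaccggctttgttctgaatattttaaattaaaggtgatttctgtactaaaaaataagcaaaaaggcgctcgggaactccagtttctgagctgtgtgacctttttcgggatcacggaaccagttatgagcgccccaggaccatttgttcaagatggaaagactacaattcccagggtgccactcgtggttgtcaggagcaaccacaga
Dnajc5g, chr5:31108069-31108318, plus strand: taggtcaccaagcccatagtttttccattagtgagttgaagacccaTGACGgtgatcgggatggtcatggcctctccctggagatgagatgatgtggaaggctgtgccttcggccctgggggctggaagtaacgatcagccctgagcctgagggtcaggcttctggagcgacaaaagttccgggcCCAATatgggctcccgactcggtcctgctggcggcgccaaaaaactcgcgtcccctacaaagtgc
Dnajb1, chr8:83607925-83608174, plus strand: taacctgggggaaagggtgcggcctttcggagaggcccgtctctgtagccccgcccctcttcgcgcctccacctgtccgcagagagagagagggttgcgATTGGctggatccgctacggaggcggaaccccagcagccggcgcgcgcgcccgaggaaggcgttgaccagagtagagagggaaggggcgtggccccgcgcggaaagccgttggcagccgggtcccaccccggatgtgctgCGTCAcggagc
TGACG or its reverse complement stood in the windows of Dnajb3, with 2 copies, and Dnajc5g, so in 2 of 5 spermatid members, in 11 of 26 housekeeping members and in 5 of 6 members of neither list. It stood in 17.8% of the 32851 windows of all genes, a share per window, while some members have more than 1 window. Counted by window, it stood in 22 of the 50 windows of members. CCAAT stood in 3 of 5 spermatid members (Dnajb3, Dnajb7 and Dnajc5g), 8 of 26 housekeeping members and 3 of 6 of the others. By window this was 18 of 50 for the members, against 33.8% of all windows. The full element TGACGTCA, which contains TGACG, was found in 0 of 5 spermatid and 0 of 26 housekeeping members, in 1 of 6 of the others (Dnajc27) and in 1.55% of windows. GAANNTTC, a core of the heat shock element, was found in 0 of 5 spermatid members and in 2 of 26 housekeeping members, Dnaja1 and Dnajb6, and in 2 of 6 of the others, Dnaja4 and Dnajc27, against 6.69% of windows. The endoplasmic reticulum stress element, CCAAT and CCACG with 9 bases between them, stood in 1 member, the housekeeping gene Dnajc3, and in 0.113% of windows. These matches are letters in a window and not measured sites.

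Dnajb3 was at 434, 399 and 429.7 RPKM in Control replicates 1 to 3, while Middle held 339, 367 and 355. No Middle library reached the lowest Control library, and the ratio of means was 0.841 (420.7 ± 19.2 and 353.6 ± 13.9 RPKM, SD, n = 3 each). The log2 fold change was -0.25 (SE 0.06, adjusted p = 0.178, limma). Pairs of means below give Control first and Middle second. In whole testis, fewer spermatids and less RNA per spermatid cannot be told apart.

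Dnajc5b encodes a cysteine string protein, a J protein attached to vesicle membranes through fatty acids on its cysteines. It was at 127, 111 and 122 RPKM in the Control libraries and 86.8, 107 and 95.6 in the Middle ones. All Middle libraries lay below Control, though Middle replicate 2 came near Control replicate 2. The log2 fold change was -0.31 (SE 0.09, adjusted p = 0.178, limma). Dnajc5g, another testis cysteine string protein gene, had 51.7, 52.01 and 52.8 RPKM in Control replicates, against 49.6, 51.7 and 48.3 in Middle. Middle replicate 2, at 51.67, came just below Control replicate 1, at 51.74, and the log2 fold change of -0.06 (SE 0.06) was the smallest in size of the spermatid members (adjusted p = 0.501, limma). It was -0.04 without Middle replicate 3.

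Dnajb7, an intronless testis gene, was at 72.6, 60.6 and 69.9 RPKM in the Control libraries and 41.0, 56.6 and 56.6 in the Middle ones. Middle replicate 1 was far below the others, and the other Middle libraries also lay below Control. The log2 fold change was -0.40 (SE 0.13, adjusted p = 0.186, limma), the lowest of all tested members, and -0.25 without Middle replicate 1. With the GC trend removed, no tested member lay below -0.353. Dnajb13 encodes a J protein of the radial spokes of the sperm tail and motile cilia. It had 66.1, 60.9 and 64.2 RPKM in Control replicates, against 56.9, 55.6 and 52.4 in Middle, with no overlap and a log2 fold change of -0.21 (SE 0.06, adjusted p = 0.178, limma).

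Dnajb8, which encodes a J protein that keeps polyglutamine proteins from clumping, was the spermatid member whose groups overlapped. It was at 139, 122 and 130.4 RPKM in the Control libraries and 112, 109 and 125 in the Middle ones, so Middle replicate 3 lay above Control replicate 2. The log2 fold change was -0.18 (SE 0.08, adjusted p = 0.236, limma). Its antisense neighbour 1700031F10Rik, with Control at 199 ± 12.9 RPKM and Middle at 177 ± 9.93 (SD, n = 3 each), had a log2 fold change of -0.17.

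**Figure D2:**
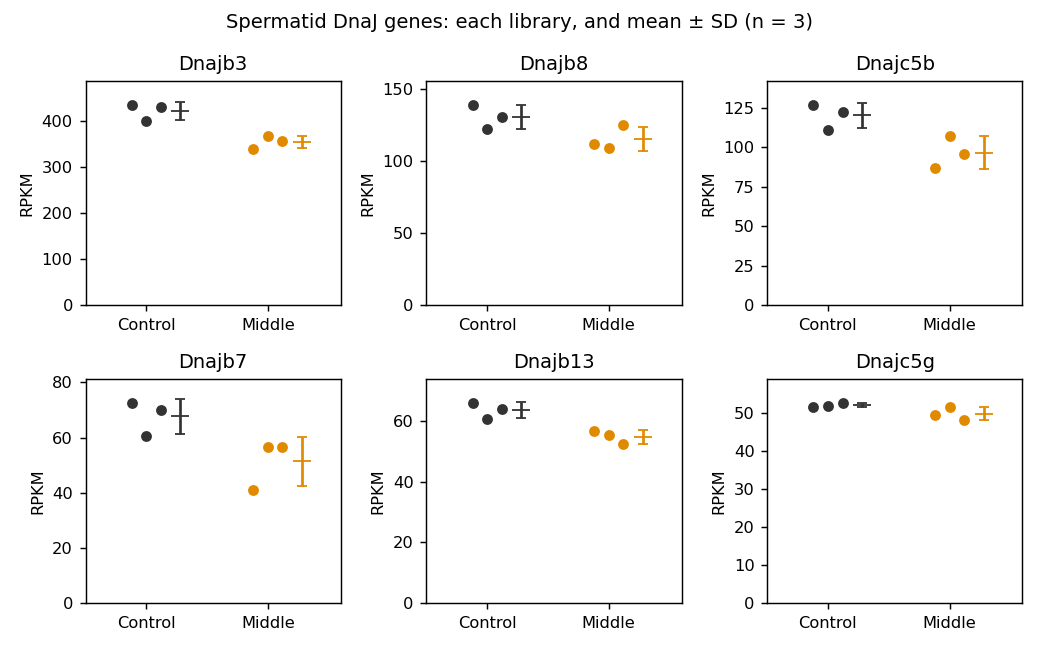
Level of the 6 spermatid DnaJ genes in RPKM, each axis starting at 0, with 1 point per library and the mean ± SD (n = 3) beside the points of each group. The Middle points lie below the Control points for every gene but Dnajb8, where 1 Middle library at 125 RPKM lies above the lowest Control library at 122.

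Averaged over the list, the mean log2(RPKM + 1) level of the spermatid members was 6.81, 6.67 and 6.78 in Control replicates 1 to 3 and 6.43, 6.58 and 6.54 in Middle. The housekeeping members were at 4.23, 4.24 and 4.24 in Control and 4.18, 4.21 and 4.24 in Middle, where the groups overlapped through Middle replicate 3. Their summed RPKM did not overlap, at 998 to 1019 in Control and 942 to 994 in Middle. The difference between the lists was 2.52 ± 0.08 for Control and 2.31 ± 0.06 for Middle (SD, n = 3 each), with all 3 Middle libraries below all 3 Control libraries. A permutation of 3 against 3 libraries cannot give an exact two-sided p under 0.1, so no test is given. The spermatid list made up 38.5% to 40.1% of the summed DnaJ RPKM in Control and 36.1% to 37.1% in Middle.

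Spermatid marker genes that are not DnaJ genes lay on the same side. Of 12 markers, 11 had a log2 fold change below 0, where 44.1% of all genes tested did, and the median was -0.21. Middle lay wholly below Control for 11.4% of all genes tested and for 5 of these 12 markers. Among them Prm1, a protamine that packs sperm DNA, stood at 4260 ± 179 RPKM (Control) and 3786 ± 171 (Middle), and Gapdhs, the sperm glycolytic enzyme and the marker above 0, at 658 ± 10.6 and 673 ± 21.6 (SD, n = 3 each). The mean log2 level of the 12 markers was 9.02, 8.88 and 8.98 in Control and 8.71, 8.78 and 8.78 in Middle. The spermatid DnaJ mean minus the marker mean was -2.207 ± 0.001 for Control and -2.239 ± 0.037 for Middle (SD, n = 3 each), with overlapping groups. The part of the marker difference in the DnaJ difference was not tested beyond these values. None of the 12 markers was listed at 0, and Prm1 and Gapdhs were named after their values were seen.

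**Figure D3:**
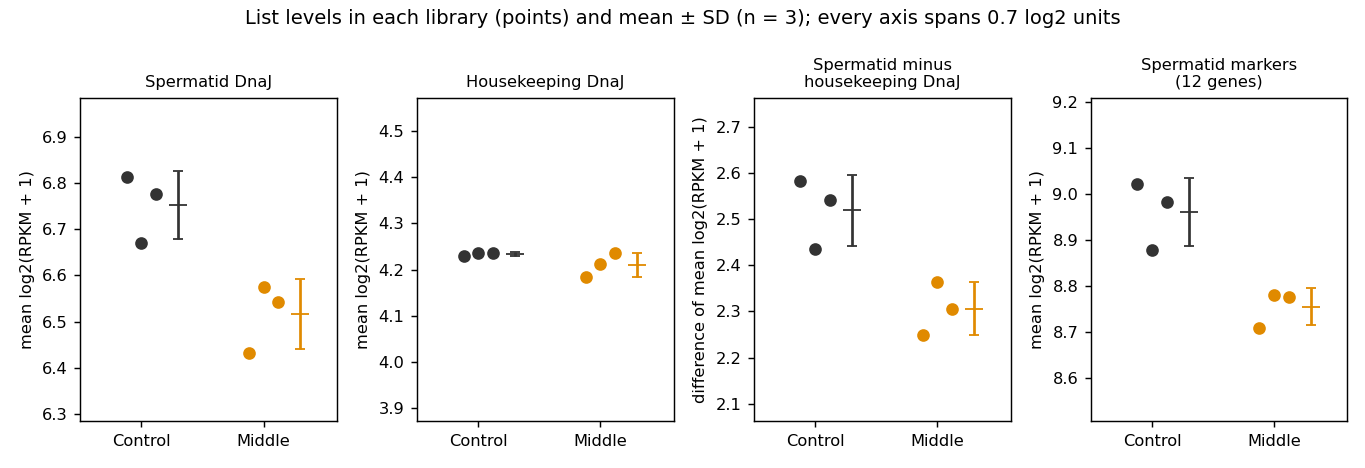
Mean log2(RPKM + 1) of the 6 spermatid DnaJ genes, the 30 housekeeping DnaJ genes, their difference, and 12 spermatid marker genes, with 1 point per library and the mean ± SD (n = 3) beside them, on axes of equal span that do not start at 0. Spermatid DnaJ genes, the difference and the markers are lower in all 3 Middle libraries, while the housekeeping groups overlap on this scale through Middle replicate 3.

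Each spermatid member has a housekeeping relative, and these are set side by side here in RPKM. Dnajc5, the cysteine string protein of synaptic vesicles, had 1.42, 1.54 and 1.54 RPKM in Control replicates, against 1.70, 1.73 and 1.85 in Middle. All Middle libraries lay above Control, and the difference (log2 0.14, SE 0.07) missed the threshold (adjusted p = 0.28, limma). With a pseudocount of 0.1 it was 0.22, and 0.23 with voom. Dnajc5b lay 51.03 to 89.4 times and Dnajc5g 26.1 to 36.6 times above Dnajc5 in RPKM. Dnajb6, the widely expressed relative of Dnajb3, Dnajb7 and Dnajb8 that also holds back protein clumping, was at 108 to 109 RPKM in Control and 97.8 to 109 in Middle. Dnajb3 stood 3.37 to 4.01 times above it, Dnajb8 1.005 to 1.28 times, and Dnajb7 at 0.419 to 0.671 of its level. Dnajb13 stood at 0.508 to 0.605 of Dnajb1.

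Among the cytosolic class A and B members, the groups of the main housekeeping genes overlapped. Dnajb1, the heat-inducible partner of HSP70, was at 110.3, 106 and 106 RPKM in the Control libraries and 107, 109 and 103 in the Middle ones, and the log2 fold change was -0.02 (SE 0.05), or -0.08 with each library's GC trend removed. For Dnajb6 it was -0.07 (SE 0.06), -0.03 without Middle replicate 1 and -0.12 with the GC trend removed. Dnaja4 had 239.9, 210.1 and 238 RPKM in Control replicates, against 193, 206 and 194 in Middle, where the groups did not overlap (log2 fold change -0.21, SE 0.07, adjusted p = 0.186, limma). It was placed in neither list. Its gene shares 1581 exon bases with Skic8 on the other strand, whose level was 3.81 ± 0.13 RPKM (Control) and 4.09 ± 0.35 (Middle; SD, n = 3 each).

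Dnajb5, a cytosolic class B relative of Dnajb1, was the tested member with the highest log2 fold change. It was at 3.67, 3.62 and 3.77 RPKM in the Control libraries and 4.63, 4.71 and 4.56 in the Middle ones, a ratio of 1.26. The gap between the groups was wider than the spread within either. The log2 fold change of 0.26 (SE 0.06) still did not pass over all genes (adjusted p = 0.178, limma). With each library's GC trend removed, no tested member lay above 0.19. Of the 8 cytosolic members 6 lay below 0 and 2 above, with a median of -0.05.

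Members of the endoplasmic reticulum had a median log2 fold change of -0.01, with 6 of 10 below 0. Dnajb9, a stress-induced partner of BiP that also holds back the sensor IRE1, had 40.9, 41.99 and 42.4 RPKM in Control replicates, against 41.5, 42.1 and 48.1 in Middle. Dnajb11, the lumenal J protein that hands clients to BiP, was at 41.1, 42.7 and 40.3 RPKM in the Control libraries and 42.7, 43.1 and 41.3 in the Middle ones. Their groups overlapped. Dnajb14 and Dnajc18, which encode J proteins of the membrane, were lower in all Middle libraries: Dnajb14 at 10.8 ± 0.30 and 9.33 ± 0.49 RPKM and Dnajc18 at 24.8 ± 0.47 and 23.4 ± 0.98 (SD, n = 3 each). Dnajc25 was also wholly lower, at 1.597 ± 0.085 and 1.46 ± 0.038 RPKM. Middle lay wholly below Control for these 3 of the 10 members, where 11.4% of all genes tested did. The log2 fold changes of Dnajb14, Dnajc18 and Dnajc25 were -0.20 (SE 0.07), -0.08 (SE 0.06) and -0.08 (SE 0.07). Dnajb14 and Dnajc25 were named after their values were seen.

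Mitochondrial members lay on either side, with 5 of 7 above 0 and a median of 0.02. Dnajc19, a part of the motor that pulls proteins into the matrix, was at 66.7, 66.8 and 66.3 RPKM in Control, and at 55.9, 64.0 and 62.5 in Middle. Every Middle library lay below Control. The log2 fold change was -0.13 (SE 0.07), -0.07 without Middle replicate 1 and -0.05 with the GC trend removed. Dnajc11, a J protein tied to the cristae-organising complex, was higher in all Middle libraries, at 4.27 ± 0.22 and 4.97 ± 0.32 RPKM (SD, n = 3 each, log2 fold change 0.18, or 0.12 with the GC trend removed). Dnajc15, of the inner membrane, was at 35.7 ± 1.51 and 35.8 ± 1.44 RPKM, and Dnajc4 at 23.5 ± 1.16 and 26.25 ± 3.47 (SD, n = 3 each).

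Of the members of ribosomes and translation, those acting on the ribosome had lower means in Middle. Dnajc21, which acts in maturation of the large ribosomal subunit, had 40.9, 37.3 and 38.5 RPKM in Control replicates, against 25.7, 35.4 and 31.2 in Middle. The groups did not overlap, and Middle replicate 1 was the lowest. The log2 fold change was -0.34 (SE 0.11, adjusted p = 0.186, limma), and -0.22 without Middle replicate 1. With the GC trend removed, no housekeeping member lay below -0.2812. Dnajc2, which sits at the exit of the ribosome and recruits HSP70 to new chains, was at 83.8, 76.4 and 69.2 RPKM in the Control libraries and 52.2, 70.1 and 68.5 in the Middle ones, where the groups overlapped. Its log2 fold change of -0.27 (SE 0.12) was -0.14 without Middle replicate 1. Dnajc24, a factor of diphthamide synthesis on the elongation factor, was at 8.19 ± 0.96 and 8.14 ± 0.96 RPKM (SD, n = 3 each). Ribosomal protein genes lay on the other side, with 82 of 83 tested above 0 and a median of 0.24.

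The nuclear members did not share a direction. Dnajc9, a histone co-chaperone, had 76.3, 68.4 and 74.5 RPKM in Control replicates, against 63.6, 64.8 and 64.9 in Middle, wholly lower, with a log2 fold change of -0.18 (SE 0.06, adjusted p = 0.192, limma). Dnajc8, a splicing-associated J protein, was at 78.0, 79.1 and 75.9 RPKM in the Control libraries and 91.1, 80.1 and 88.3 in the Middle ones, wholly higher, with 0.15 (SE 0.07, adjusted p = 0.243, limma). Dnajc17, also tied to splicing, had 13.0, 12.3 and 14.3 RPKM in Control replicates, against 20.04, 13.7 and 14.6 in Middle. The groups overlapped, and its log2 fold change of 0.25 (SE 0.13) was 0.10 without Middle replicate 1.

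Of the vesicle and remaining members, those with the highest means had groups that overlapped, Dnajc5 aside. Dnajc13, which acts on endosomes, had means of 1.28 ± 0.07 RPKM (Control) and 1.30 ± 0.12 (Middle). Dnajc7, which passes clients between HSP70 and HSP90, was at 37.02 ± 0.68 and 35.9 ± 1.76 RPKM, Dnajc14 at 6.04 ± 0.07 and 6.02 ± 0.05, and Dnajc27 at 8.75 ± 0.38 and 7.89 ± 1.22 (SD, n = 3 each). The groups overlapped for these 4 genes. Of the genes left untested for low levels, Dnajc12 was at 0.559 ± 0.063 and 0.551 ± 0.161 RPKM, Dnajc22 at 0.225 ± 0.024 and 0.356 ± 0.120, and Dnajc6 at 0.158 ± 0.060 and 0.221 ± 0.087 (SD, n = 3 each), each with overlapping groups. The tested members not yet named (Dnaja1, Dnaja2, Dnaja3, Dnajb2, Dnajb4, Dnajb12, Dnajc1, Dnajc3, Dnajc10, Dnajc16, Dnajc28 and Dnajc30) also had overlapping groups. Their log2 fold changes ran from -0.10 for Dnajb4 to 0.11 for Dnajc30, a mitochondrial member whose gene shares exon bases with Bud23.

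**Figure D4:**
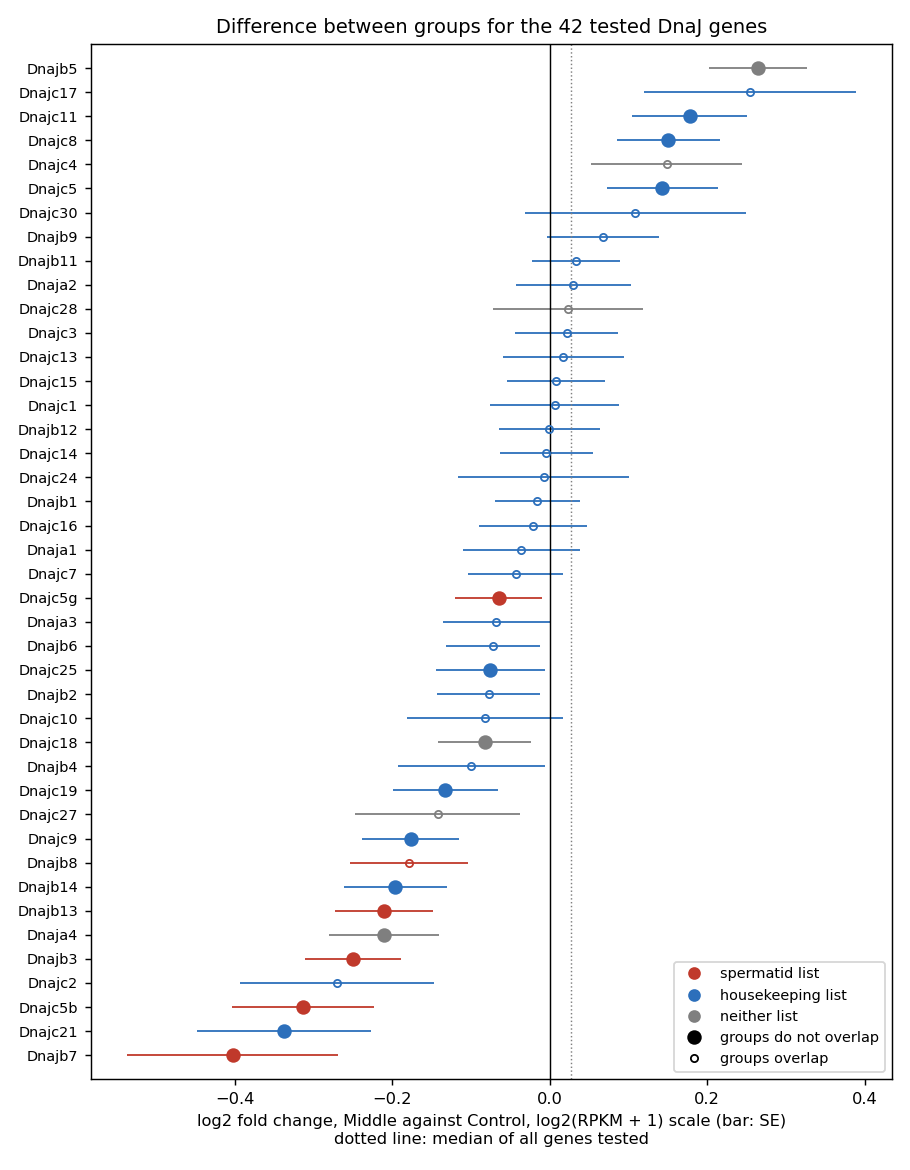
Log2 fold change, Middle against Control, of the 42 tested DnaJ genes with its SE, coloured by list, large filled points marking genes whose groups do not overlap. The 6 spermatid genes lie between -0.40 and -0.06, while housekeeping genes spread from -0.34 to 0.25.

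The HSP70 partners of the family were read in the same fit. Of the 36 HSP70s, exchange factors, other co-chaperones, J-domain genes with other symbols and heat shock factors in the list, 34 were tested and 0 passed, with 19 above 0, 15 below and a median of 0.01. Hspa2, the HSP70 of spermatocytes, had 512 ± 13.0 RPKM (Control) and 487 ± 31.9 (Middle), and Hspa1l, the HSP70 of spermatids, had 403 ± 32.5 and 339 ± 20.5 (SD, n = 3 each). For Hspa1l every Middle library lay below Control (log2 fold change -0.25, adjusted p = 0.178, limma). The general HSP70 gene Hspa8, named after its values were seen, was wholly higher, at 96.8 ± 3.46 and 118 ± 9.53 RPKM (log2 fold change 0.28). Of the exchange factors, which free HSP70 of its nucleotide, Bag1 was at 705 ± 15.5 and 698 ± 25.9 RPKM and Bag5 at 287 ± 14.7 and 234 ± 31.8 (SD, n = 3 each). The groups of Bag5 did not overlap, with Middle replicate 1 lowest at 199 RPKM against 262 and 241 in the other Middle libraries. Its log2 fold change of -0.30 was -0.19 without Middle replicate 1.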

How the data were processed

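Per the labels' protocols, messenger RNA libraries were prepared from Trizol extracts of testis. The submitters' processing notes name fastp 0.23.0, a read trimmer, and the build GRCm39. Aligner, counting program and strand setting: not given in the sources used here. For each library the deposited table held, for 38715 genes, RPKM values from the authors, with gene lengths and exon lists per the file headers. Multiplied by gene length, every value was a whole multiple of what 1 read is worth in its library (tolerance 0.001), so reads could be recovered.

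The libraries were grouped by title. The 15040 genes whose mean reached 1 RPKM in either group were tested as log2(RPKM + 1) with limma 3.58.1 (R 4.3.3, trend in the prior variance), two-sided, with Benjamini-Hochberg adjustment over all of them and a threshold of 0.05, and members were read from that fit. The test was tried on simulated reads drawn without any GC trend between libraries. That trial does not show how the test behaves with the GC differences seen here. The members and lists were chosen with earlier results of these data known. Named were all spermatid members, the 3 most abundant of each role list, the 5 highest and 5 lowest log2 fold changes, and the 2 most abundant HSP70s and exchange factors. Within groups, read counts of libraries differed by more than sampling noise (6.26 to 34.4 as chi-square over its degrees of freedom). Pairs holding Middle replicate 1 differed most (34.4 and 24.7). Each library was counted as 1 replicate, though such differences do not show that it is a separate animal. GC content came from GENCODE M21 transcripts by symbol, without its coordinates. Alternatives were median-of-ratios scaling, no filter, limma-voom on recovered reads (genes reaching 10 reads in 3 or more libraries), a filter at 5 RPKM, a pseudocount of 0.1, a replicate block, removal of each library's GC trend (loess, span 0.5), and leaving out each library.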

Additional observations from a re-analysis of the deposited data

How the results depend on the processing

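The count of DnaJ members past the threshold was 0 under every alternative run, and the spermatid members were all below 0 under each of them. The median log2 fold change of the spermatid list ran from -0.29 (GC trend removed) to -0.21 (without Control replicate 1). The difference between the spermatid and housekeeping lists, -0.21 between groups, ran from -0.26 to -0.18. For the housekeeping median of -0.01 the value was -0.029 with median-of-ratios scaling and -0.036 with a filter at 5 RPKM, which left 23 of its members. The count of all genes past the threshold, 8, was 0 with no filter, 0 with the replicate block, 0 with the replicate block and GC trend removed, and 0 to 3 with 1 library left out (3 without Control replicate 1, 1 without Middle replicate 1, 0 without any of the others). The cause was not tested. Genes near 0 changed sign: Dnajb11 was at -0.0075 with the GC trend removed (-0.0075 also with the replicate block), and Dnajc15 at -0.011 with median-of-ratios scaling. With the GC trend removed Bag1 was at -0.095 and Dnajb1 at -0.079, from -0.02 each, and Hspa2 at -0.14 from -0.07. With 1 library left out the ranges were -0.041 to 0.012 for Bag1, -0.033 to 0.0063 for Dnajb1, -0.0079 to 0.061 for Dnajc13, -0.011 to 0.0024 for Dnajc14, -0.022 to 0.041 for Dnajc15 and -0.097 to 0.081 for Dnajc24. Same-numbered libraries did not deviate together (correlations -0.15, -0.12 and 0.01), so the numbers were not taken as pairs. No library correlated best with its own number. Each tested member had at least 270 reads in every library.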
